A study of Mus musculus with 8 samples.

Results

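The 10 genes described here, *Aurka*, *Aurkb*, *Plk1*, *Bub1*, *Bub1b*, *Ttk*, *Nek2*, *Cdc20*, *Mad2l1* and *Cdk1*, encode kinases that drive mitosis and proteins of the spindle checkpoint. They were taken by symbol from a table of 27036 mouse genes, and each symbol matched 1 gene. Their RNA was measured by bulk RNA-seq in 3 normal prostates (WT), 3 prostates with prostatic intraepithelial neoplasia (PIN) and 2 prostatic adenocarcinomas (PCa). PIN and PCa tissues came from *R26* mTmG/hAR:*Osr1* Cre/+ mice (hARtg-Osr1Cre), in which Cre under the control of *Osr1* activates both a human androgen receptor transgene (hARtg) and a membrane-bound green fluorescent protein. Controls were labelled WT-control and Normal, and the study describes them as matched for sex and age and uses *R26* mTmG/+:*Osr1* Cre/+ mice, which carry the reporter and Cre without hARtg, as its wild type animals. Each library came from a separate animal on a mixed C57BL/6 and 129S1/SvImJ background, and the ages of these 8 animals are not given in the sources used here. The tissue sent for sequencing was chosen under the microscope to hold mostly atypical or tumor cells, but it was not sorted. In such bulk RNA, fewer cells of a type and less RNA per cell cannot be told apart.

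Cyclin-dependent kinase 1, bound to a B-type cyclin, drives the cell into mitosis, and the Aurora A, Polo-like 1 and Nek2 kinases help separate the centrosomes and build the spindle. Aurora B corrects wrong attachments between chromosomes and microtubules. While any chromosome lacks an attachment, the kinases TTK and BUB1 recruit MAD2 and BUBR1 (the product of *Bub1b*), which hold CDC20 in an inhibitory complex. Once all chromosomes are attached, CDC20 activates the anaphase-promoting complex, a ubiquitin ligase that marks cyclin B and securin for destruction. Most of these genes are transcribed mainly in the G2 and M phases of the cell cycle, so their RNA is low in a tissue in which few cells divide, as in the adult prostate.

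All 10 genes were higher in both PCa libraries than in any WT or PIN library, and all 10 rose in PCa against WT, by 2.56 to 5.73 on the log2 scale, which is 5.90-fold for *Mad2l1* and 53.2-fold for *Aurka*. Of all genes tested, 17.7% were higher in both PCa libraries than in any WT library, 21.1% than in any PIN library, and 4.35% were called higher in PCa against WT. Between WT and PIN the same genes differed by 0.55 to 1.09 on the log2 scale, and 0 of 10 passed, as did 0% of all genes. Between PIN and PCa they differed by 1.97 to 4.77, and 8 of 10 passed as higher, compared with 2.55% of all genes. Each gene thus had more of its log2 difference between PIN and PCa than between WT and PIN, although the test of that contrast itself passed for 0 of 10, compared with 0.0143% of all genes called higher. A gene passed if its log2 fold change exceeded 1 in either direction with an adjusted p under 0.05, where p came from edgeR's quasi-likelihood test and was adjusted by the Benjamini-Hochberg method over all 14034 genes tested. All 10 genes were above the limit on low counts. Levels of a gene in single libraries are given as CPM, counts scaled to equal library sizes after adjustment by the trimmed mean of M-values (TMM).

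**Figure D1:**
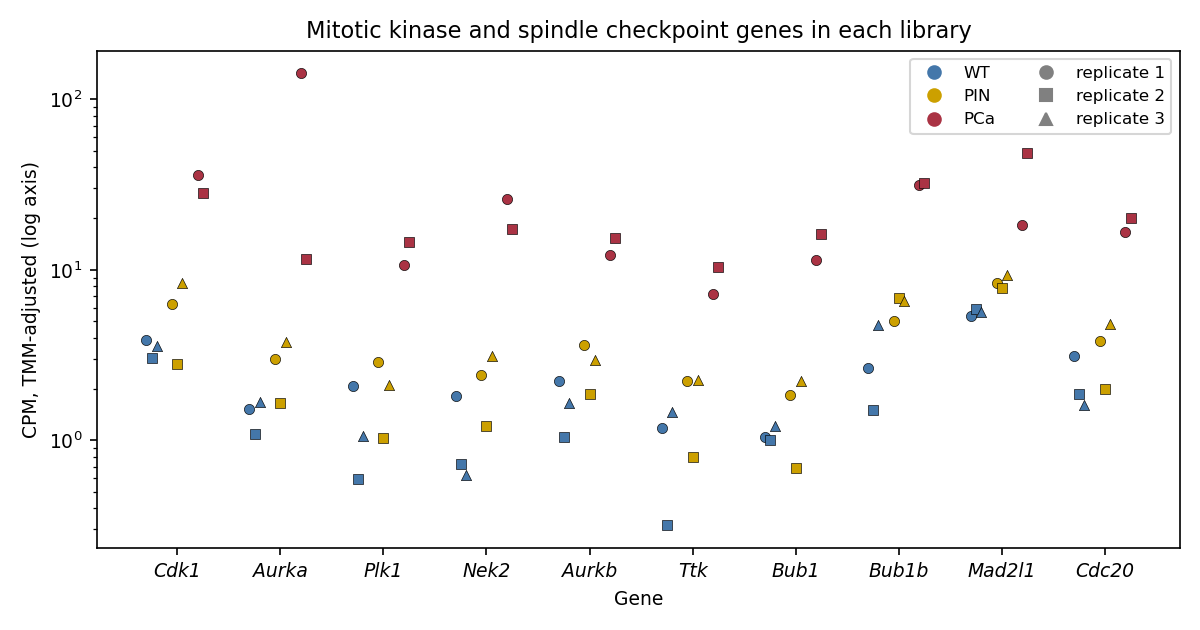
Level of each of the 10 genes in CPM (TMM-adjusted, log axis) in each of the 8 libraries, with color for the group and shape for the replicate. Both PCa points of every gene lie above all WT and PIN points, and *Aurka* in PCa 1 stands at 142 CPM against 11.5 in PCa 2.

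The libraries held 21751803 to 29730420 counts on genes. 9530053A07Rik alone took 13.1% to 22.1% of the counts in each WT and PIN library, and the TMM factors were 0.754 to 1.03 in WT and PIN against 1.20 and 1.33 in PCa. Numbers in the library names form 3 runs, with WT 1 in one, WT 2 and WT 3 in the next, and PIN and PCa together in the last. Should these runs mark batches, they and the condition cannot be told apart against WT, while PIN and PCa share a run. Smooth muscle markers, at 1910 to 5417 CPM in sum in WT and PIN, were at 41.0 in PCa 1 and 17.8 in PCa 2, and all 5 fell in PCa. Luminal markers summed to 11012 to 32616 CPM in WT and 13745 to 18795 in PIN, against 3224 and 2913 in PCa, with none of the 7 at 0 in any library, and 1 of 7 fell in PCa. Basal markers were at 601 CPM in PCa 1 and 27.3 in PCa 2, and leukocyte markers at 334 and 28.3, so the PCa libraries differed in the RNA of these markers. Seminal vesicle markers summed to 15593 CPM in WT 1 against 0.634 in WT 2 and 0.768 in WT 3, so WT 1 stood apart from the other normal prostates, and counts without it are given where it moved them by over 1.5 times. The same markers summed to 32.5 to 84.3 CPM in PIN and to 2851 in PCa 1 and 689 in PCa 2. The part of tissue makeup in the levels of the 10 genes was not tested.

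*Cdk1*, whose kinase triggers entry into mitosis, lies on chromosome 10 (mm9, 68799383 to 68815686, minus strand). It measured 3.86, 3.04 and 3.59 CPM in WT 1 to 3, 6.34, 2.79 and 8.40 in PIN 1 to 3, and 36.2 and 28.1 in PCa 1 and 2. PIN 1 and PIN 3 were above every normal prostate, but PIN 2 was below all of them, so WT and PIN overlapped, while PCa stood clear of both. The log2 fold change was 0.74 (SE 0.40) for PIN against WT, 2.46 (SE 0.44) for PCa against PIN and 3.20 (SE 0.45) for PCa against WT. The adjusted p-values of edgeR's quasi-likelihood test were 1, 0.0277 and 0.0103, respectively.

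*Aurka*, which encodes the Aurora A kinase of centrosome and spindle assembly, lies on chromosome 2 (mm9, 172181690 to 172196035, minus strand). Its level was 1.53, 1.09 and 1.68 CPM in WT 1 to 3, 2.99, 1.65 and 3.77 in PIN 1 to 3, and 142 and 11.5 in PCa 1 and 2. The PCa libraries differed from each other far more for *Aurka* than for any of the other 9 genes, with 4411 counts in PCa 1 and 336 in PCa 2, a difference of 3.61 on the log2 scale. Over all 14034 genes tested, 10.4% differed by more than 3 in either direction between these libraries, and the median size was 0.61. Even so, PCa 2 was above every PIN and WT library. *Aurka* rose by 4.77 (SE 0.92, adjusted p = 0.0312) from PIN to PCa and by 5.73 (SE 0.96, adjusted p = 0.0157) from WT to PCa on the log2 scale in edgeR's quasi-likelihood test. The size of this rise rested on PCa 1. With PCa 1 left out, the log2 fold change fell to 2.06 against PIN and 3.01 against WT, and with PCa 2 left out it was 5.69 and 6.64. Each of these fits holds a single PCa library and no spread between tumors, so only the sizes are given. Over all alternatives the adjusted p for *Aurka* ranged from 9.5e-07 to 0.121 against PIN and from 1.4e-09 to 0.0764 against WT.

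*Plk1*, coding for a kinase with roles from centrosome maturation to cytokinesis, lies on chromosome 7 (mm9, 129302951 to 129313389, plus strand). WT 1 to 3 held 2.08, 0.589 and 1.06 CPM, PIN 1 to 3 held 2.88, 1.03 and 2.11, and PCa 1 and 2 held 10.7 and 14.5. WT and PIN overlapped, and PCa did not overlap either. Its log2 fold change of 2.64 (SE 0.63) in PCa against PIN missed the threshold narrowly (adjusted p = 0.0521 in edgeR's quasi-likelihood test), whereas PCa against WT passed, at 3.34 (SE 0.64, adjusted p = 0.0237).

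*Nek2*, encoding a kinase that splits the linked centrosomes, lies on chromosome 1 (mm9, 193645323 to 193656929, plus strand). It was at 1.83, 0.725 and 0.622 CPM in WT 1 to 3, at 2.41, 1.21 and 3.13 in PIN 1 to 3, and at 26.03 and 17.3 in PCa 1 and 2. The log2 difference between PIN and WT was 1.09 (SE 0.55), with WT 1 inside the PIN range, and it was 1.73 without WT 1 and 0.78 without PIN 3. It did not pass (unadjusted p = 0.0823 in edgeR's quasi-likelihood test). It rose by 3.27 (SE 0.60, adjusted p = 0.0284) from PIN to PCa and by 4.36 (SE 0.63, adjusted p = 0.0104) from WT to PCa, second to *Aurka* in both with all 8 libraries.

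*Aurkb*, encoding the Aurora B kinase of the chromosomal passenger complex, lies on chromosome 11 (mm9, 68859149 to 68865166, plus strand). Its libraries gave 2.22, 1.04 and 1.65 CPM in WT 1 to 3, 3.60, 1.86 and 2.94 in PIN 1 to 3, and 12.2 and 15.3 in PCa 1 and 2. The single overlap of WT with PIN came from WT 1 and PIN 2. The rise was 2.29 (SE 0.45, adjusted p = 0.0334) against PIN and 3.06 (SE 0.46, adjusted p = 0.0119) against WT on the log2 scale in edgeR's quasi-likelihood test. In contrast to *Aurka*, the other Aurora kinase, *Aurkb* was higher in PCa 2 than in PCa 1, by 0.33 on the log2 scale.

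*Ttk*, which encodes the kinase that starts the checkpoint signal, lies on chromosome 9 (mm9, 83728296 to 83765997, plus strand), and it measured 1.19, 0.317 and 1.46 CPM in WT 1 to 3, 2.23, 0.792 and 2.26 in PIN 1 to 3, and 7.24 and 10.4 in PCa 1 and 2. It had only 7 counts in WT 2 and 23 in PIN 2, and its SEs were the largest of the 10 genes after those of *Aurka*. The difference of 2.32 (SE 0.71) between PCa and PIN did not pass (adjusted p = 0.100 in edgeR's quasi-likelihood test), while PCa was higher than WT by 3.15 (SE 0.73, adjusted p = 0.0395). That call did not pass when any WT or PIN library was left out, at 2.73 to 3.55 (adjusted p = 0.0501 to 0.0881 in the same test). Over all alternatives its adjusted p ranged from 0.00041 to 0.113. Without PCa 1 or PCa 2, which leaves a single PCa library, the difference was 3.39 and 2.88, respectively.

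*Bub1*, a kinase gene needed to bring the other checkpoint proteins to the kinetochore, lies on chromosome 2 (mm9, 127626858 to 127657601, minus strand). WT was tight at 1.04, 0.997 and 1.21 CPM, PIN spread over 1.84, 0.689 and 2.22, and PCa reached 11.4 and 16.3. PIN 2 fell below all 3 normal prostates. The log2 difference of *Bub1* between PIN and WT was 0.55 (SE 0.48), but with all 8 libraries it had, after *Aurka* and *Nek2*, the highest between PCa and PIN, 3.12 (SE 0.53, adjusted p = 0.0232 in edgeR's quasi-likelihood test). PCa against WT was 3.67 (SE 0.54, adjusted p = 0.0108).

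*Bub1b*, encoding BUBR1, a subunit of the inhibitory complex itself, lies on the same chromosome (mm9 chromosome 2, 118423947 to 118467328, plus strand). It measured 2.67, 1.495 and 4.72 CPM in WT 1 to 3, 5.003, 6.82 and 6.55 in PIN 1 to 3, and 31.4 and 32.2 in PCa 1 and 2. The PCa libraries were nearly equal, and here every PIN library was above every WT library. Its difference between PIN and WT, 1.04 (SE 0.41), had the lowest unadjusted p of the 10 genes, 0.0365, and did not pass after adjustment (adjusted p = 1). In PCa it rose by 2.37 (SE 0.45, adjusted p = 0.0309) against PIN and by 3.42 (SE 0.47, adjusted p = 0.00955) against WT in the same quasi-likelihood test in edgeR.

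*Mad2l1*, coding for MAD2, lies on chromosome 6 (mm9, 66485384 to 66491027, plus strand). With 5.34, 5.89 and 5.67 CPM in WT 1 to 3 and 8.35, 7.78 and 9.34 in PIN 1 to 3, it was the other gene whose PIN libraries were all above WT, and the spread within each group was small. PCa 1 and PCa 2 were at 18.4 and 48.2 CPM, a difference of 1.39 in favor of PCa 2 on the log2 scale. The gene rose by 1.97 (SE 0.39, adjusted p = 0.0333) from PIN to PCa and by 2.56 (SE 0.39, adjusted p = 0.0124) from WT to PCa in edgeR's quasi-likelihood test, the smallest rises of the 10 with all 8 libraries. Without PCa 2 the difference was 1.14 from PIN and 1.72 from WT. Without PCa 1 it was 2.52 and 3.11, and neither was then the smallest of the 10. Each of these fits holds a single PCa library, so only the sizes are given. Over all alternatives the adjusted p ranged from 0.00018 to 0.126 against PIN and from 3.4e-07 to 0.0798 against WT.

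*Cdc20*, the activator of the anaphase-promoting complex that MAD2 and BUBR1 hold back, lies on chromosome 4 (mm9, 118105506 to 118109957, minus strand). Levels were 3.11, 1.86 and 1.61 CPM in WT 1 to 3, 3.82, 2.00 and 4.82 in PIN 1 to 3, and 16.5 and 20.02 in PCa 1 and 2. PIN 2 lay within the WT range, and both PCa libraries were above all others. *Cdc20* rose by 2.37 (SE 0.47, adjusted p = 0.0334) against PIN and by 3.06 (SE 0.48, adjusted p = 0.0131) against WT in edgeR's quasi-likelihood test. Its exons overlap those of *Elovl1* by 53 bases on the opposite strand, and whether the counting used strand is not given in the sources used here.

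Per exon length, the genes kept a similar order in WT and PIN. In TPM, which scales the counts by exon length, *Mad2l1* was highest in both, at 7.70 ± 1.02 (SD, n = 3) in WT and 13.1 ± 0.714 (SD, n = 3) in PIN, and its range did not overlap that of *Cdc20*, next in order at 3.57 ± 1.51 (SD, n = 3) in WT and 6.39 ± 2.39 (SD, n = 3) in PIN. *Cdk1* followed at 3.09 ± 0.775 (SD, n = 3) in WT and *Bub1b* at 2.20 ± 1.45 (SD, n = 3). *Nek2*, at 0.718 ± 0.493 TPM (SD, n = 3), was lowest in WT, and *Bub1*, at 1.22 ± 0.588 TPM (SD, n = 3), was lowest in PIN. Apart from *Mad2l1* and *Cdc20*, the other 8 of 9 neighboring pairs in each of these orders had overlapping ranges. In PCa, *Aurka* was first in PCa 1 at 214 TPM but only at 18.1 in PCa 2, whereas *Mad2l1* was at 31.8 and 86.8 TPM and *Cdc20* at 33.8 and 42.5. *Ttk* was last, at 9.51 and 14.2 TPM. Of the 9 neighboring pairs in PCa, 6 overlapped.

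In PIN against WT, 0 of the 10 genes and 0 of 14034 genes (0% of all genes tested) passed in edgeR's quasi-likelihood test, and DESeq2 and limma-trend also called 0 of the 10. At an unadjusted p under 0.05, 1 of the 10 (*Bub1b*) was higher in PIN with each of these tools, against 1.92% of all genes in edgeR, and 0 to 3 of the 10 were in edgeR when 1 library was left out. The log2 fold change was above 0 in 10 of 10, with a median of 0.76 beside -0.02 over all genes tested. In 6 of 10 leaving out 1 library moved its size by over 1.5 times. *Cdk1* was at 0.39 and *Cdc20* at 0.41 without PIN 3, and *Bub1* was at 0.22 without PIN 3 and 0.90 without PIN 2. *Plk1* was at 0.33 without PIN 1, 0.36 without WT 2 and 1.27 without WT 1, *Ttk* at 0.41 without WT 2 and *Nek2* at 1.73 without WT 1. The sign turned for none of the 10. In 2 of 10, *Bub1b* and *Mad2l1*, all PIN libraries were above all WT libraries, which was also true of 6.48% of all genes. This count moved with single libraries, a check chosen after the values had been seen. It was 5 of 10 without WT 1, with *Aurkb*, *Nek2* and *Cdc20* added (14.9% of all genes), and 10 of 10 without PIN 2 (1684 of all 14034 genes), and 2 or 3 of 10 without any other WT or PIN library. The interval of *Bub1b* ran from 0.08 to 2.00 on the log2 scale. Upper ends of the intervals lay between 1.41 for *Mad2l1* and 2.82 for *Aurka*, so differences of such sizes between PIN and WT remain within the error of these 3 against 3 libraries.

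The PIN libraries did not move as 1 group. PIN 2 was the lowest PIN library for 9 of 10 genes, *Bub1b* being the exception, for which it was the highest. Measured against the WT mean on the log2 scale, the median of the 10 genes was 0.97 in PIN 1, 0.07 in PIN 2 and 1.21 in PIN 3, compared with 0.31, -0.35 and 0.06 in WT 1 to 3 and 3.25 and 3.37 in PCa 1 and 2. *Mki67*, a general marker of dividing cells, was lowest in PIN 2 as well, with 49.6, 19.5 and 43.0 CPM in PIN 1 to 3 against 16.1 to 20.3 in WT and 223 and 305 in PCa 1 and 2. WT 2 was the lowest normal prostate for 7 of 10 genes.

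In PCa against PIN, 8 of 10 genes rose, compared with 2.55% of all genes called higher. *Plk1* and *Ttk* did not pass. The median log2 fold change was 2.42, beside 0.07 over all genes tested, and all PCa libraries were above all PIN libraries in 10 of 10 against 21.1% of all genes. Leaving out PIN 1, PIN 2 or PIN 3 each gave 0 of 10 calls in edgeR's quasi-likelihood test. Over all genes, 37 of 13936, 19 of 13893 and 7 of 13994 were then called higher. At an unadjusted p under 0.05, 10 of 10 were higher each time, against 9.34%, 7.95% and 6.97% of all genes. With all libraries 10 of 10 were as well, against 11.6% of all genes. The count was 5 of 10 without WT 1 (213 of 13899 genes called higher), when *Aurka*, *Bub1b* and *Mad2l1* no longer passed. It was 2 of 10 without WT 3 (106 of 13996 genes), when *Bub1b* and *Nek2* still did. Leaving out PCa 1 or PCa 2 leaves a single PCa library, and the median of the 10 was then 2.52 and 2.40, respectively.

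Between WT and PCa all 10 genes rose, compared with 4.35% of all genes called higher, and with 17.7% whose PCa libraries were all above WT. The median was 3.27 on the log2 scale beside 0.01 over all genes. *Ttk* had the highest adjusted p, 0.0395, and *Bub1b* the lowest, 0.00955, in edgeR's quasi-likelihood test. Without WT 3, 4 of 10 passed (*Bub1*, *Bub1b*, *Nek2* and *Cdk1*), beside 144 of 13996 genes called higher. Without WT 1, 8 of 10 passed, all but *Aurka* and *Ttk* (309 of 13899 genes). Without PIN 3, 8 of 10 passed, all but *Plk1* and *Ttk* (215 of 13994 genes). Without WT 2, PIN 1 or PIN 2, 9 of 10 passed (419 of 14013, 314 of 13936 and 367 of 13893 genes). Over all genes the calls split into 611 higher and 587 lower. Scaling by library totals alone turned this into 2005 higher and 389 lower and moved the median of all genes to 0.56, and relative to that the median of the 10 genes was 3.22.

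**Figure D2:**
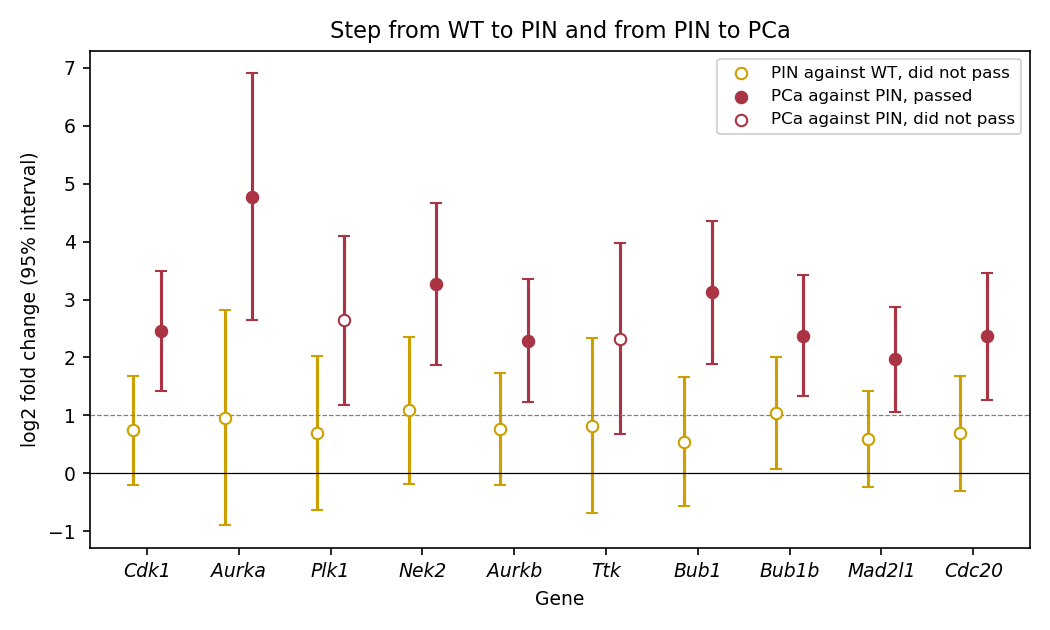
Log2 fold change of each gene from WT to PIN and from PIN to PCa, with 95% intervals from edgeR's quasi-likelihood fit. Filled points passed and open points did not, and the dashed line marks the limit of 1. The point for PIN to PCa is above that for WT to PIN in all 10 genes, and the intervals of the steps overlap in all but *Bub1*.

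The size of the steps was then compared within each gene, as the step from PIN to PCa minus the step from WT to PIN. This difference was above 0 in 10 of 10 genes, from 1.33 for *Bub1b* to 3.81 for *Aurka*, with a median of 1.70 beside 0.09 over all genes. It stayed above 0 in all 10 when any 1 library was left out, but *Bub1b* was then as low as 0.82 (without WT 3), *Ttk* 0.80 (without PIN 2) and *Cdk1* 1.05 (without PIN 2). None passed (0 of 10, against 0.0143% of all genes called higher), and the lowest adjusted p was 0.359, for *Bub1*, in edgeR's quasi-likelihood test. At an unadjusted p under 0.05 2 of 10 (*Bub1* and *Aurka*) were above 0, compared with 3.95% of all genes. That count was 1 of 10 without WT 1, PIN 1 or PIN 2, 3 of 10 without PIN 3 and 4 of 10 without WT 2. Shares over all genes in these fits were 1.49% to 5.04%. DESeq2 called 0 of 10, with 5 of 10 above 0 at an unadjusted p under 0.05, compared with 6.17% of all genes in DESeq2. The first step made up 14.9% (*Bub1*) to 30.5% (*Bub1b*) of the whole log2 difference between WT and PCa. The steps share the PIN libraries, so an error in the PIN mean moves them in opposite directions. For *Aurka* and *Mad2l1* the size turned on which PCa library was left out. Without PCa 1, *Aurka* was at 1.10 and *Mad2l1* at 1.93, whereas without PCa 2, *Aurka* was at 4.73 and *Mad2l1* at 0.55. These fits hold a single PCa library, so only the sizes are given. With any WT or PIN library left out, the adjusted p of this difference in edgeR's quasi-likelihood test was 0.510 to 0.997 for *Mad2l1* and 0.413 to 0.909 for *Aurka*.

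Levels of the 10 genes went up and down together over the 8 libraries. Pearson's r of a gene's log2 CPM with the mean of the other 9 ran from 0.877 for *Aurka* and 0.894 for *Mad2l1*, the genes whose PCa libraries differed most, to 0.988 for *Aurkb*. These values describe libraries that share group, depth and tissue makeup. Genes with the profile most like the mean of the 10 were *Cenpn* (r = 0.996), *Melk* (0.996), *Tyms* (0.994), *Ccna2* (0.993), *Cdca8* (0.993), *Nusap1* (0.992), *Pbk* (0.992) and *Tacc3* (0.991). Cyclin A2, the product of *Ccna2*, is a partner of cyclin-dependent kinases, *Cdca8* encodes a subunit of the Aurora B complex, and *Tacc3* a substrate of Aurora A. *Ccna2* was at 3.49 to 5.24 CPM in WT, 9.86, 4.41 and 8.25 in PIN 1 to 3, and 44.7 and 54.2 in PCa 1 and 2, again with PIN 2 lowest in PIN.

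Promoters of genes expressed in G2 and M often carry a cell cycle genes homology region (CHR), TTTGAA or its variant TTCGAA, with CCAAT boxes upstream. As the 10 genes moved together, these letters were looked up on both strands in RefSeq windows from 250 bases before to 50 bases after the transcription start (GRCm38.p6), which were at hand for 9 of the 10 genes, all but *Aurkb*. TTTGAA was found in 6 of 9 windows, compared with 17.9% of 32851 windows of the same length, and TTCGAA in 2 of 9 against 1.56%. CCAAT was found in 8 of 9 against 37.4%. The stretches of 30 bases around each match are shown with the motif in capitals, on the strand of the gene.
*Cdk1*, chr10:69352966-69352995, minus strand, match 71 bases before the start: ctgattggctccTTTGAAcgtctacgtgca
*Cdk1*, chr10:69352910-69352939, minus strand, 15 bases before the start: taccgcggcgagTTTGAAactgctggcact
*Cdc20*, chr4:118437344-118437373, minus strand, 18 bases before the start: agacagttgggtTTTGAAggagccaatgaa
*Aurka*, chr2:172370521-172370550, minus strand, at base 33 after the start: aaaaggagaaccTTTGAAttgtaacggctg
*Plk1*, chr7:122159453-122159482, plus strand, at base 31 after the start: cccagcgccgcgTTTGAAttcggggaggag
*Bub1b*, chr2:118598231-118598260, plus strand, at base 41 after the start: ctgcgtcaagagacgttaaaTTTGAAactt
*Bub1b*, chr2:118598011-118598040, plus strand, 188 bases before the start: tctctccctgggTTCGAAggcttgtcttag
*Bub1*, chr2:127831828-127831857, minus strand, at base 15 after the start: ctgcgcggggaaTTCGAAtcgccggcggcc
*Ttk*, chr9:83834684-83834713, plus strand, at base 8 after the start, on the opposite strand: cagcggggaaatTTCAAAcgtgtttccgga

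*Cdk1* held the consensus at 2 places, each within 100 bases before the start, and also carried 3 CCAAT matches on the opposite strand. In the *Cdc20* stretch the consensus is followed within 10 bases by CCAAT. *Nek2* and *Mad2l1* held neither form, and *Mad2l1* held no CCAAT in this window. A match is a description of the letters and not of a bound site, and no binding at these promoters was analysed here.

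The partners that activate or restrain these kinases were examined next. Of 17 cofactors and regulators, 9 rose in PCa against WT, compared with 4.35% of all genes called higher, and 0 fell, with a median of 2.36. *Cdc25c*, the phosphatase that activates CDK1, rose by 4.45 (adjusted p = 0.0103 in edgeR's quasi-likelihood test), and the B-type cyclin genes *Ccnb2* and *Ccnb1* rose by 3.93 and 3.92. *Ccnb1* was at 0.498 to 1.63 CPM in WT, 2.48, 1.21 and 2.52 in PIN 1 to 3, and 12.6 and 16.3 in PCa 1 and 2. *Tpx2*, the activator of Aurora A on the spindle, rose by 3.60 (adjusted p = 0.00773), from 2.67 to 3.95 CPM in WT to 33.8 in PCa 1 and 43.4 in PCa 2. Its PCa libraries were close to each other, unlike those of *Aurka*. The other subunits of the Aurora B complex rose as well, *Birc5* by 3.61, *Cdca8* by 3.27 and *Incenp* by 2.36 on the log2 scale.

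Not every regulator moved. *Bora*, listed as 6720463M24Rik, which helps Aurora A activate PLK1, was at 3.44 to 5.24 CPM in WT and 6.85 and 7.37 in PCa, a log2 difference of 0.62 that did not pass (adjusted p = 0.324 in edgeR's quasi-likelihood test). *Wee1*, whose kinase inhibits CDK1, had the lowest value of the list, -1.49 (adjusted p = 0.126), with 54.3, 158 and 75.5 CPM in WT 1 to 3 and 19.9 and 48.3 in PCa 1 and 2. *Cks1b*, encoding a small CDK-binding protein, was at -0.58 (adjusted p = 0.349).

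Among 17 partners of the checkpoint at the kinetochore, 10 rose and 0 fell in PCa against WT, compared with 4.35% of all genes called higher and 4.18% lower. The median was 2.21. Without WT 1, 6 rose, beside 309 of 13899 genes called higher. *Knl1* (listed as Casc5), the scaffold to which BUB1 and BUBR1 are recruited, rose by 4.82 (adjusted p = 0.0103 in edgeR's quasi-likelihood test), *Kntc1*, of the complex that brings MAD1 and MAD2 to kinetochores, by 3.91 and *Sgo2a* (listed as Sgol2), a protector of centromeric cohesion, by 3.79. By contrast *Bub3*, the binding partner of both BUB1 and BUBR1, was at 27.6, 44.4 and 35.8 CPM in WT 1 to 3 and 50.6 and 48.8 in PCa 1 and 2, a log2 difference of 0.47 (adjusted p = 0.327). *Mad1l1*, which encodes the partner that anchors MAD2, was at 8.84 to 9.94 CPM in WT and 9.11 and 12.2 in PCa, a difference of 0.16 (adjusted p = 0.736). *Bub3* stood at 42.7 to 59.1 TPM in WT, above all 10 genes. Lowest in the list were *Zw10* at 0.11 and *Mad2l1bp*, whose product helps take MAD2 off CDC20, at -0.34 (adjusted p = 0.511).

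The anaphase-promoting complex, on which CDC20 acts, was examined with its regulators. In PCa against WT, 3 of 20 genes rose, compared with 4.35% of all genes called higher, 0 fell and the median was 0.02. Without WT 3, 1 of them rose, beside 144 of 13996 genes called higher. Those that rose were *Ube2c*, the ubiquitin-conjugating enzyme of the complex, by 3.36 (adjusted p = 0.0165 in edgeR's quasi-likelihood test), *Espl1*, the separase that cuts cohesin, by 2.79 and *Fbxo5*, an inhibitor of the complex, by 2.54. None of these is a core subunit. The core subunits *Cdc23* and *Anapc7* had the lowest values, -0.62 and -0.65 (adjusted p = 0.0926 and 0.0914), and did not pass.

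Of 18 transcription regulators of mitotic and cell cycle genes, 6 rose and 0 fell in PCa against WT, with a median of 0.54. Over all genes, 4.35% were called higher and 4.18% lower. At most 2 rose without WT 1, WT 3, PIN 1 or PIN 3, fits that called 309, 144, 314 and 215 of all genes higher, respectively. *E2f8* and *E2f7*, atypical E2F repressors, rose by 3.36 and 2.66. *Foxm1*, an activator of G2 and M genes, rose by 1.88 (adjusted p = 0.0201 in edgeR's quasi-likelihood test), from 3.35 to 5.14 CPM in WT to 11.97 and 18.5 in PCa. *Mybl2*, of the complex that binds CHR promoters, was at 0.997 to 2.13 CPM in WT and 4.15 and 5.28 in PCa, without overlap, but its difference of 1.56 did not pass (adjusted p = 0.0847). *E2f4* and *Rbl2*, members of the repressive complex of resting cells, were at -0.49 and -0.26 and did not pass.

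Of 33 relatives of the kinases, 28 were tested, and in PCa against WT 4 rose, compared with 4.35% of all genes called higher, 0 fell and the median was 0.28. At most 2 rose without WT 1, WT 3 or any PIN library, fits that called 144 to 367 of all genes higher. *Plk2* and *Plk3*, Polo-like kinases linked to stress responses rather than mitosis, rose by 3.27 and 2.06 (adjusted p = 0.0168 and 0.0320 in edgeR's quasi-likelihood test). *Plk2* was at 5.35 to 11.3 CPM in WT, 17.4 to 39.5 in PIN and 46.9 and 131 in PCa. *Plk4*, the kinase of centriole duplication, and *Mad2l2* were the others. *Cdk6* was at 5.76 CPM in PCa 1 and 32.2 in PCa 2, and its difference of 1.65 did not pass (adjusted p = 0.174). *Cdk14* at -2.84 (adjusted p = 0.0965) and *Cdk20* at -1.40 (adjusted p = 0.115) were lowest.

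Among 16 markers of cycling cells, chosen mostly from DNA replication, 11 rose and 0 fell in PCa against WT, compared with 4.35% of all genes called higher and 4.18% lower. The median was 1.87. *Mki67* rose by 3.85 (adjusted p = 0.00602 in edgeR's quasi-likelihood test) and the helicase genes *Mcm3* and *Mcm5* by 2.68 and 2.62. *Cdt1* at 1.54 (adjusted p = 0.0730) and *Pcna* at 0.93 (adjusted p = 0.0887) were lowest and did not pass. In sum these markers were at 160 to 193 CPM in WT, 180 to 257 in PIN and 753 and 926 in the PCa libraries, and their part in the rise of the 10 genes was not tested. Over the 6 lists together, 43 of 116 genes tested rose from WT to PCa and 34 from PIN to PCa, and 0 fell in either, compared with 4.35% and 2.55% of all genes called higher and 4.18% and 3.17% called lower. From WT to PCa, 28 rose without WT 1 and 26 without WT 3, with 309 and 144 of all genes called higher. From PIN to PCa, 22 rose without WT 1 and 10 without WT 3, with 213 and 106 of all genes called higher. Without PIN 1, PIN 2 and PIN 3 the listed genes that rose were 3, 4 and 1, with 37, 19 and 7 of all genes. In PIN against WT, 0 of 116 passed in edgeR's quasi-likelihood test, with 12 at an unadjusted p under 0.05 in either direction (3.51% of all genes), of which 11 were higher in PIN (1.92%). Those 11 became 2 without PIN 1, 4 without WT 2 and 4 without PIN 3, and 9 to 16 without any other library. DESeq2 and limma-trend also called 0 of 116.

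**Figure D3:**
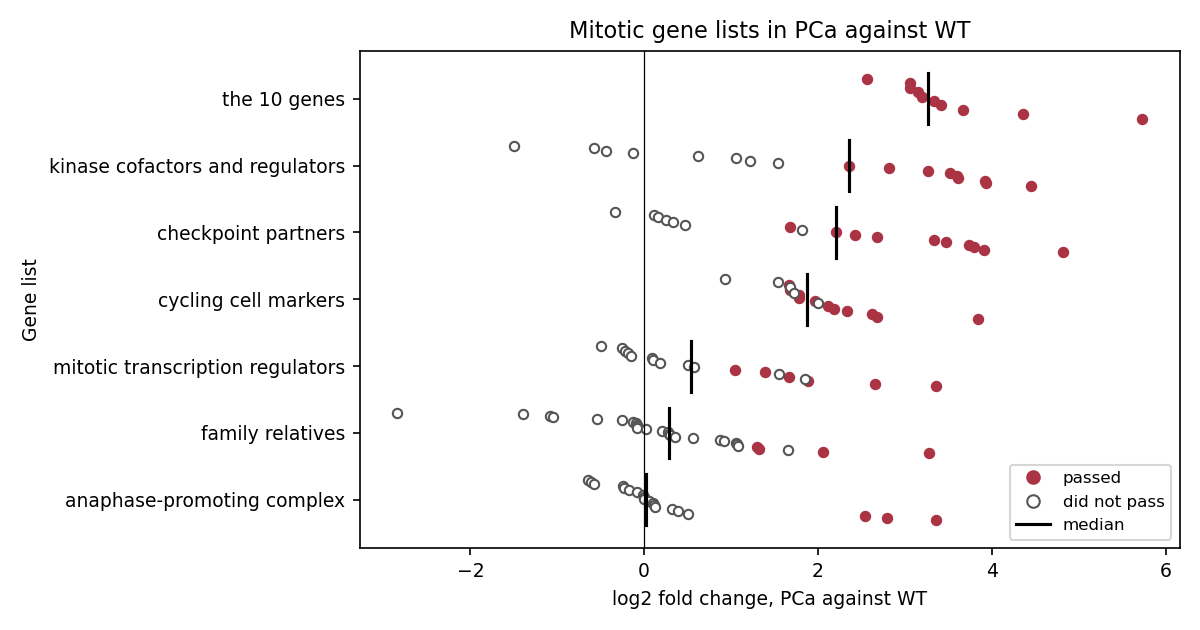
Log2 fold change of PCa against WT for the 10 genes and for each gene of the 6 lists, 1 row per list, with the median as a black bar. Filled points passed and open points did not. The median falls from 3.27 for the 10 genes to 0.02 for the anaphase-promoting complex, in which 3 genes stand apart from the rest.

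*Aurka* in PCa 1 was followed to its neighbors on chromosome 2, a step chosen after its value had been seen. *Cstf1*, whose centre lies 13.2 kb from that of *Aurka*, was at 22.1 to 26.5 CPM in WT, 23.7 to 29.4 in PIN, 291 in PCa 1 and 27.3 in PCa 2. 2410001C21Rik was at 50.2 to 57.1 CPM in WT, 47.9 to 58.0 in PIN, 626 in PCa 1 and 46.8 in PCa 2. *Tfap2c*, a transcription factor gene, was at 10.3 to 17.6 CPM in WT, 15.4 to 22.3 in PIN, 418 in PCa 1 and 48.6 in PCa 2. These genes were thus high in PCa 1 and near the level of WT and PIN in PCa 2, except *Tfap2c*, which was 1.73 above the WT mean there on the log2 scale.

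Within 1 Mb of *Aurka*, 10 of 11 other genes tested were more than 2 above the WT mean on the log2 scale in PCa 1, with a median of 3.58. In PCa 2, 1 of the same 11 was, and the median was 0.17. That gene was *Spo11*, at 7.82 in PCa 2 and 4.26 in PCa 1. Over all genes tested, 9.40% exceeded 2 in PCa 1 and 7.21% in PCa 2. *Bmp7* was the exception in PCa 1, at -0.92. Farther out, between 1 and 4 Mb, 6 of 9 genes on the side of lower coordinates exceeded 2 in PCa 1 and 1 of 13 on the side of higher coordinates did, with 0 of either in PCa 2. The high values ran from *Atp9a* (2.51) and *Zfp64* (3.82) to *Pmepa1* (4.13), interrupted by *Gm17619* (-2.94), *Bcas1* (1.91) and *Bmp7*, and *Rab22a*, the next gene tested, was at -1.08. For the 9 other genes, the median of neighbors within 500 kb in PCa 1 was between -0.81 and 1.63, the latter for *Nek2*, against 3.55 for *Aurka*. DNA copy number was not analysed here, and its part in these values was not tested.

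**Figure D4:**
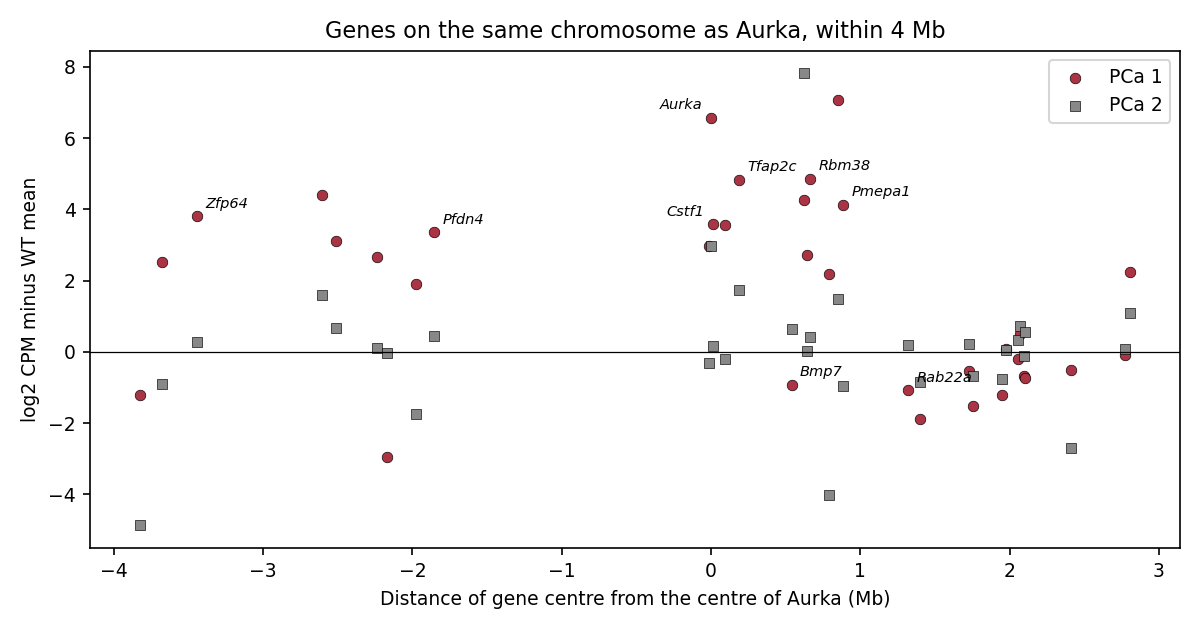
Log2 CPM minus the WT mean of all genes tested within 4 Mb of *Aurka*, against the distance of their centres from that of *Aurka* in Mb, for PCa 1 and PCa 2. PCa 1 points are mostly above 2 up to *Pmepa1* and, but for 1 gene at 2.23, near or below 0 from *Rab22a* on. PCa 2 points are mostly near 0, but *Spo11* is at 7.82, *Aurka* at 2.96, *Edn3* at -2.69, *Pck1* at -4.01 and *Nfatc2* at -4.87.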

How the data were processed

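RNA was sequenced as paired-end libraries on an Illumina HiSeq instrument after removal of ribosomal RNA (Kapa RNA HyperPrep with RiboErase). The authors trimmed reads with cutadapt 1.9.1, aligned them to mm9 with HISAT2 2.1.0 and counted them per gene with HTSeq 0.6.1, and the deposited values are these raw counts. The gene annotation and the strand setting of the counting are not given in the sources used here. The deposited table also holds an exon length per gene, another kind of value, used for TPM.

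Counts were tested in R 4.3.3 with edgeR 4.0.16 (quasi-likelihood F-test, TMM) on 14034 of 27036 genes, those with more than 1 CPM in at least 2 libraries. All 8 libraries entered 1 model of 3 groups, with 5 residual degrees of freedom and a common biological coefficient of variation of 0.489. The difference between steps was a contrast of that model. Intervals are 95%. Levels relative to the WT mean are log2 CPM with a prior count of 2. The edgeR procedure was also run on simulated counts with known changes. Their spread was set below the coefficient of 0.489 found here, so that run cannot show how calls behave in these libraries. Groups and replicate numbers come from the labels. Depth was 21751803 counts or more per library and sets the precision of weakly expressed genes, and 2 PCa libraries limit every comparison with PCa.

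The 10 genes, the lists and the rule for naming genes were chosen with earlier results of these data known. Named were the 10 genes, the 3 highest and 2 lowest of each list in PCa against WT, 11 direct partners, and the 8 genes most like the mean of the 10. Alternatives were upper-quartile normalization, library totals alone, DESeq2 1.42.0, limma-trend (3.58.1), no filter, filterByExpr, only the groups compared, a replicate block, no fold change limit, each library left out and, added after the data were seen, edgeR's newer quasi-likelihood method. The human transgene, single-cell and chromatin data were not analysed here.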

Additional observations from a re-analysis of the deposited data

How the results depend on the processing

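Counts of the 10 genes called in PIN against WT were 0 under all alternatives run, and none of the 10 changed direction in any comparison. In PCa against PIN, 8 of 10 and 34 of the 116 listed genes passed, and under upper-quartile normalization, library totals alone, DESeq2, limma-trend, filterByExpr, no fold change limit and edgeR's newer quasi-likelihood method these counts were 8 to 10 and 31 to 49. In PCa against WT the same settings gave 10 of 10 and 40 to 56 of the listed genes, with 43 in the fit reported. Calls over all genes moved as well. Apart from the setting with no fold change limit, 296 to 960 genes were called higher against PIN, beside 358 in the fit reported. Against WT 567 to 2005 were, beside 611. The 56 listed genes came from library totals alone and DESeq2, with 2005 and 1311 of all genes called higher. Without a filter on low counts, 21 listed genes passed in PCa against PIN, beside 265 of 21366 genes called higher. With only the groups compared in the model, 2 of the 10 and 9 listed genes passed in PCa against PIN (157 of 13813 genes called higher). In PCa against WT 2 and 11 did (67 of 13655 genes). Fewer libraries then estimate the spread. Leaving out each library gave 0 to 9 of the 10 and 1 to 45 listed genes in PCa against PIN, 4 to 10 and 26 to 45 in PCa against WT, and 0 to 1 of the 10 for the difference between the steps.

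With the replicate block, 0 of the 10 and 4 listed genes passed in PCa against PIN by edgeR's quasi-likelihood test (10 of 10 at an unadjusted p under 0.05), and 8 and 25 in PCa against WT. Over all 14034 genes, 28 and 202 were then called higher. Replicate numbers do not pair these different animals. Deviations of libraries with the same number correlated at -0.0562 to 0.284 over 7 pairs. *Ttk*, with as few as 7 counts in a library, lost its call against WT in 9 of 18 alternatives, more than any other of the 10 genes.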
